A study of Mus musculus with 3 samples.

Results

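The contractile and actin cytoskeleton genes are 34 mouse genes chosen by symbol, among them actins, proteins of the thin filament, myosins, crosslinkers of the focal adhesion, intermediate filaments and regulators. Of the 34, 33 had a probe set of their own, among 19938 genes measured in all, and Actg1 was seen only through probe sets it shares with Actb. The study measured total RNA of 3 mouse samples on 3 arrays, 1 array per group. DiBA are cells from a study of directly converted brown adipocytes, labelled as cultivated cells. For BA the source and tissue fields name brown adipose tissue, while its description speaks of cultivated cells, so the labels do not settle whether tissue or culture was used. The fibroblasts are mouse fibroblasts, also labelled as cultivated cells. The labels give one set of culture conditions and no treatment for all 3 samples, and the strain, the age, the factors used for conversion and any pooling are not stated in the labels.

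In contractile cells, myosin pulls on actin filaments once the myosin light chain has been phosphorylated by its kinase, and tropomyosin, caldesmon and calponin sit along the filament and tune that pull. Smooth muscle uses its own forms of actin, myosin heavy chain, calponin and transgelin, while other cells build stress fibres and focal adhesions from general, non-muscle forms of the same families. Cultured fibroblasts are known for strong stress fibres and often carry smooth muscle forms, whereas actin is remodelled into a cortical layer when adipocytes differentiate. Many of these genes are targets of SRF, a transcription factor that binds the CArG box, a short stretch rich in A and T between a pair of C and a pair of G.

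The CArG box was looked for in the promoters, because the genes of the contractile apparatus as a group differed in the same direction between arrays. RefSeq promoter windows of build GRCm38.p6, 300 bases long with 250 before the gene start and 50 after it, were found for 29 of the 34 genes, and no window was at hand for Actg2, Actb, Tagln, Myh11 and Tgfb1i1. An exact CArG box lay in 5 of 33 windows (15.2%), against 1.63% of all 32851 promoter windows. With up to 1 mismatch the share was 33.3% of the members' windows, against 21.1% of all windows. The CArG box reads as the same pattern on both strands, and a match is a description of letters and no proof of binding. The members were chosen by symbol and many are known SRF targets, so a share above that of all windows was to be foreseen. It says nothing about the differences between arrays.

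The windows around the boxes are printed in the direction of the gene, from 5′ to 3′ and ending at or before the gene start, with CArG boxes of up to 1 mismatch in capitals. Those of Myl9, Cnn2, Vcl, Srf and Actg1 hold the exact boxes, and Acta2, the smooth muscle actin gene, is shown for the further upstream of its 2 boxes with 1 mismatch; its other box starts 34 bases before the gene start, and only its first bases fall in the printed window, in lower case. Myl9 lies at chr2:156775258-156775357 on the plus strand, Cnn2 at chr10:79988499-79988598 on the plus strand, Vcl at chr14:20929148-20929225 on the plus strand, Srf at chr17:46556190-46556289 on the minus strand, Actg1 at chr11:120348531-120348630 on the minus strand and Acta2 at chr19:34255403-34255502 on the minus strand.
Myl9: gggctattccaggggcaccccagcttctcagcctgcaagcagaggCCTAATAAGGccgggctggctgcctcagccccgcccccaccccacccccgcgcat
Cnn2: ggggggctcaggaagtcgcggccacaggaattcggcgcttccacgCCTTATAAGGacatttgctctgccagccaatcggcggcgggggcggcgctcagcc
Vcl: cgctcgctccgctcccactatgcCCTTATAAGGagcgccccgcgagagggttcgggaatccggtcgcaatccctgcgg
Srf: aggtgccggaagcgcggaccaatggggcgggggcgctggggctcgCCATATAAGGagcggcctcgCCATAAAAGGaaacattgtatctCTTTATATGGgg
Actg1: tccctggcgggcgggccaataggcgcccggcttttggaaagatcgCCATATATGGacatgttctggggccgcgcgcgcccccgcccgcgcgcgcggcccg
Acta2: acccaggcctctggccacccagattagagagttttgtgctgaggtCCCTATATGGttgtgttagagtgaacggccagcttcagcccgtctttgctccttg

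The distance from the first base of the box to the gene start was 161 bases for Myl9, 56 for Cnn2, 227 for Vcl, 90 for Actg1 and 84 for the printed box of Acta2. Srf itself carries exact boxes at 82 and 62 bases and another, with 1 mismatch, at 39 bases. The MCAT motif, CATTCC or GGAATG on the other strand, which TEAD factors bind, lay in 42.4% of the members' windows, against 14.7% of all windows, and both motifs were searched separately, so that matches may overlap. Members with and without an exact box in the window both reached low values in DiBA. The log2 difference from fibroblasts was -3.53 for Myl9, -3.62 for Cnn2, -1.94 for Vcl and -1.37 for Srf, all with exact boxes. For Actg1, the other gene with an exact box, probe sets shared with Actb ran from -0.98 to -0.79, short of 2-fold. The log2 difference was -3.99 for Cnn1, whose window held neither a CArG box of up to 1 mismatch nor the MCAT motif. Tpm2 at -0.23 and Mylk at -0.35, also without an exact box in their windows, differed little. Boxes outside the windows were not searched, and whether the box bears on these differences was not tested.

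Marker genes of other cell types differed between the same arrays. Beside the counts that follow, 14.7% of all genes passing the level set out below were higher in DiBA than in fibroblasts and 13.2% lower. All 10 adipocyte markers exceeded fibroblasts by 2-fold or more in DiBA, with a summed intensity of 50826 in DiBA, 53415 in BA and 722 in fibroblasts. Of 20 skeletal muscle markers, 18 exceeded fibroblasts by 2-fold or more in DiBA, and their summed intensity was 22184 in DiBA, 25227 in BA and 3466 in fibroblasts. The fast myosin gene Myh4 had 1142 in DiBA, 1295 in BA and 41.2 in fibroblasts. Of 10 endothelial markers 8 were higher in DiBA, with sums of 3492, 4154 and 708 in DiBA, BA and fibroblasts, and of 11 macrophage markers 10 were higher, with sums of 4607, 4492 and 1326. Of 12 fibroblast markers 7 were lower and 2 higher in DiBA, with sums of 14858 in DiBA, 11461 in BA and 32768 in fibroblasts. The library labelled DiBA, described as cultivated cells, thus carried skeletal muscle, endothelial and macrophage transcripts near the level of BA. Whether that array holds the labelled cells alone cannot be told from the files, and every value given for DiBA, and each comparison with it, is that of the library so labelled. No marker was listed at 0 on any array, and the part of these cell types in the values below was not tested.

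The first comparison asks how the contractile and actin genes differed between DiBA and fibroblasts. A gene was counted as higher or lower where log2(intensity + 1) differed by 1 or more, which is 2-fold, and where the brighter array of the pair reached 69.2, the median of all probe sets. All 33 genes passed that level in fibroblasts. Of the 33, 27 were lower in DiBA and 0 higher, beside 13.2% of all genes passing the level that were lower and 14.7% that were higher. Among genes at least as bright in fibroblasts as the dimmest member, at 144, 17.9% were lower. The median difference of the 33 genes was -2.17 (log2), against 0 over all genes. With 1 array per group no error between replicates can be given and no test was possible. In RNA of a whole sample, fewer cells of a type and less RNA per cell cannot be told apart.

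**Figure D1:**
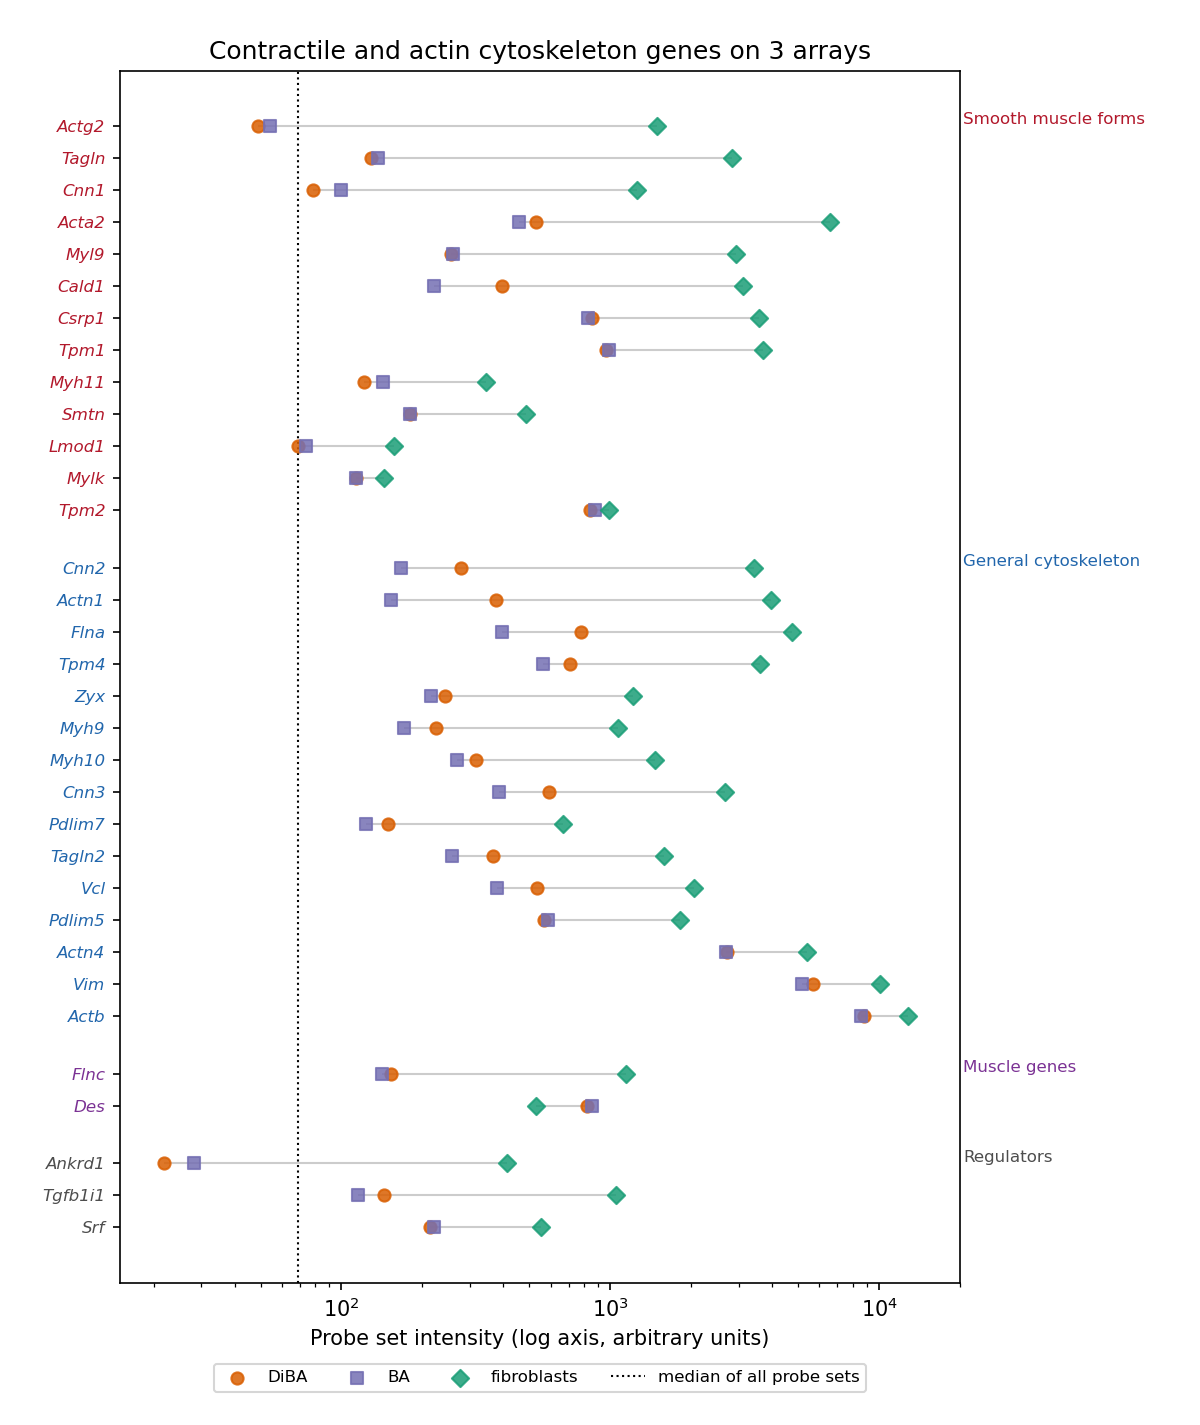
Intensity of each gene (log axis, arbitrary units) on the DiBA, BA and fibroblast arrays, with 1 point per array and the dotted line at the median of all probe sets, 69.2. The fibroblast point lies to the right of both others for 32 of 33 genes, Des being the exception.

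Among the actins, the smooth muscle forms stood furthest from fibroblasts. Acta2, which encodes the actin of vascular smooth muscle, had an intensity of 531 in DiBA, 457 in BA and 6596 in fibroblasts, 12.4-fold lower in DiBA and 14.4-fold lower in BA. Actg2, the actin of visceral smooth muscle, had 49.0 in DiBA, 54.3 in BA and 1496 in fibroblasts, a log2 difference of -4.90 for DiBA and -4.76 for BA. Both of its low values lay under 69.2, and with intensities raised to that level the difference was -4.42 in each. Actb, the cytoplasmic actin of all cells, had 8803 in DiBA, 8548 in BA and 12789 in fibroblasts, and did not reach 2-fold in either.

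For Actg1, the other cytoplasmic actin gene, 4 probe sets shared with Actb had between 4809 and 5365 in DiBA, 4444 and 4784 in BA, and 9297 and 9906 in fibroblasts. Their log2 difference from fibroblasts ran from -0.98 to -0.79 in DiBA and from -1.11 to -0.96 in BA. The coding sequences of the actin genes are closely alike, so probes of one can take up RNA of another, and how far that moved each value was not tested.

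The proteins along the thin filament came next. Tagln, which encodes transgelin, an actin bundler of smooth muscle, had 128 in DiBA, 137 in BA and 2841 in fibroblasts, 22.0-fold lower in DiBA and 20.6-fold lower in BA. Its general relative Tagln2 had 366 in DiBA, 259 in BA and 1586 in fibroblasts, 4.33-fold lower in DiBA and 6.11-fold lower in BA. The smooth muscle form was thus further from fibroblasts than the general form on both arrays.

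Calponins restrain myosin on the actin filament. Cnn1, the smooth muscle calponin, had 78.3 in DiBA, 99.3 in BA and 1255 in fibroblasts, a log2 difference of -3.99 for DiBA and -3.65 for BA. Cnn2, the general calponin, had 277 in DiBA, 166 in BA and 3425 in fibroblasts, at -3.62 and -4.36. The order of the pair by log2 difference changed with the array, since Cnn1 lay further from fibroblasts in DiBA and Cnn2 in BA. Cnn3, the acidic calponin, had 590.4 in DiBA, 386 in BA and 2669 in fibroblasts, at -2.17 and -2.79.

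Tropomyosins wind along the filament and gate myosin. Tpm1 had 959.9 in DiBA, 991 in BA and 3713 in fibroblasts, 3.86-fold and 3.74-fold lower in DiBA and BA. Tpm2 had 838 in DiBA, 876 in BA and 986 in fibroblasts, and differed least of the smooth muscle forms. Both genes also encode tropomyosins of skeletal muscle, most of whose markers were higher in DiBA and BA. Whether that bears on Tpm1 and Tpm2 was not tested. Tpm4, a general tropomyosin, had 705 in DiBA, 563 in BA and 3609 in fibroblasts, 5.11-fold and 6.40-fold lower. Its second probe set, shared with Gm7809, gave log2 differences of -1.88 for DiBA and -2.40 for BA, against -2.35 and -2.68 for its own.

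Cald1, which encodes caldesmon, had 395 in DiBA, 221 in BA and 3111 in fibroblasts, 7.86-fold lower in DiBA and 14.0-fold lower in BA. Lmod1, a nucleator of actin filaments in smooth muscle, was dim on all arrays, with 69.1 in DiBA, 73.6 in BA and 157 in fibroblasts, at -1.17 and -1.08 (log2). Smtn, which encodes smoothelin of contractile smooth muscle, had 180.1 in DiBA, exactly the same value in BA, and 486 in fibroblasts, 2.69-fold lower in both. Lmod1 and Smtn were lower by far less than Tagln or Cnn1, although all belong to the same apparatus.

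Myosin genes had a narrower span. Myl9, the regulatory light chain, had 255 in DiBA, 260.0 in BA and 2946 in fibroblasts, 11.5-fold lower in DiBA and 11.3-fold lower in BA. Myh11, the smooth muscle heavy chain, had 122 in DiBA, 142 in BA and 343 in fibroblasts, at -1.49 and -1.27 (log2). The general heavy chains were further from fibroblasts than Myh11. Myh9, averaged over 2 probe sets, had 225 in DiBA, 171 in BA and 1071 in fibroblasts, at -2.25 and -2.64, and its probe sets gave -2.22 and -2.27 for DiBA. Myh10 had 317 in DiBA, 270.0 in BA and 1468 in fibroblasts, at -2.21 and -2.44. Mylk, the kinase that starts contraction, had 113 in both DiBA and BA and 144 in fibroblasts, and did not reach 2-fold.

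Crosslinkers and focal adhesion genes were lower in 8 of 9 cases, both in DiBA, beside 13.2% of all genes, and in BA, beside 16.4%. Actn1, an alpha-actinin that crosslinks stress fibres, had 377 in DiBA, 153 in BA and 3947 in fibroblasts, 10.5-fold lower in DiBA and 25.7-fold lower in BA. Its relative Actn4 had 2717 in DiBA, 2697 in BA and 5387 in fibroblasts, at -0.99 and -0.998 (log2), just short of 2-fold in each. Flna, the general filamin, had 775 in DiBA, 395 in BA and 4757 in fibroblasts, at -2.62 and -3.59. Actn1 and Flna had the widest gaps between DiBA and BA among the members.

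Flnc, the filamin of muscle, had 153 in DiBA, 142 in BA and 1140 in fibroblasts, 7.39-fold and 7.98-fold lower. Vcl, which encodes vinculin of the focal adhesion, had 532 in DiBA, 379 in BA and 2043 in fibroblasts, 3.83-fold and 5.37-fold lower. Zyx, which encodes zyxin of stress fibres, had 244 in DiBA, 216 in BA and 1211 in fibroblasts, 4.95-fold and 5.59-fold lower. The next genes encode LIM domain proteins of actin bundles. Csrp1 had 853 in DiBA, 826 in BA and 3579 in fibroblasts, at -2.07 and -2.11 (log2). Pdlim5 had 568 in DiBA, 587 in BA and 1810.1 in fibroblasts, at -1.67 and -1.62. Pdlim7 had 149 in DiBA, 123 in BA and 667 in fibroblasts, at -2.15 and -2.43.

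Neither intermediate filament gene reached 2-fold. Des, which encodes desmin of muscle cells, had 817 in DiBA, 853 in BA and 527 in fibroblasts, and was the 1 gene of the 33 with a higher value in DiBA and BA, by 1.55-fold and 1.62-fold, short of the 2-fold threshold. Of 20 skeletal muscle markers, 18 were 2-fold or more higher on each of the same arrays, and whether they bear on Des was not tested. Vim, which encodes vimentin of mesenchymal cells, had 5676 in DiBA, 5158 in BA and 10059 in fibroblasts, 1.77-fold and 1.95-fold lower.

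All 3 regulators were lower, both in DiBA, beside 13.2% of all genes, and in BA, beside 16.4%. Srf had 213 in DiBA, 222 in BA and 553 in fibroblasts, 2.59-fold and 2.49-fold lower. Tgfb1i1, a LIM adaptor of the focal adhesion, had 144 in DiBA, 115 in BA and 1046 in fibroblasts, 7.22-fold and 9.02-fold lower. Ankrd1, an ankyrin repeat protein known from strained muscle and as a target of the Hippo pathway, had 21.9 in DiBA, 28.4 in BA and 411 in fibroblasts, at -4.17 and -3.81 (log2). Both of its low values lay under 69.2, and with intensities raised to that level it was at -2.56 in each.

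The second comparison asks how the same genes differed between BA and fibroblasts, and it shares the fibroblast array with the first. Of the 33 genes, 27 were lower in BA and 0 higher, beside 16.4% of all genes passing the level that were lower and 16.3% that were higher. Among genes at least as bright in fibroblasts as the dimmest member, 21.9% were lower. The median of the members was -2.48, against 0 over all genes. The 27 genes were those that were lower in DiBA, and the 6 others were Actb, Vim, Actn4, Tpm2, Mylk and Des.

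Smooth muscle forms were then set against the general cytoskeleton. The 13 smooth muscle forms were Acta2, Actg2, Tagln, Cnn1, Myl9, Tpm1, Tpm2, Cald1, Lmod1, Myh11, Mylk, Smtn and Csrp1. Of these, 11 were lower in DiBA, as were 12 of the 15 general genes, beside 13.2% of all genes. The median difference of DiBA from fibroblasts was -2.07 for the smooth muscle forms and -2.17 for the general genes. In BA the medians were -2.11 and -2.48, with the same counts of 11 and 12, beside 16.4% of all genes. The smooth muscle forms were thus not lower as a group, but they spread further than the general genes. In DiBA they spread over 4.67 log2 units from Actg2 to Tpm2, against 3.08 from Cnn2 to Actb for the general genes. Actg2 lay under 69.2 in DiBA and in BA, and was at -4.42 in each with intensities raised to that level. In BA the spreads without that floor were closer, at 4.59 for the smooth muscle forms and 4.10 for the general genes. The 4.59 rests on the dim value of Actg2. The sign of the difference between the medians turned when Tpm1, Tpm2, Cald1, Myl9 and Mylk, which also serve cells outside smooth muscle, were left out: smooth muscle minus general was then -0.68 in DiBA and -0.40 in BA, in place of 0.11 and 0.37.

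**Figure D2:**
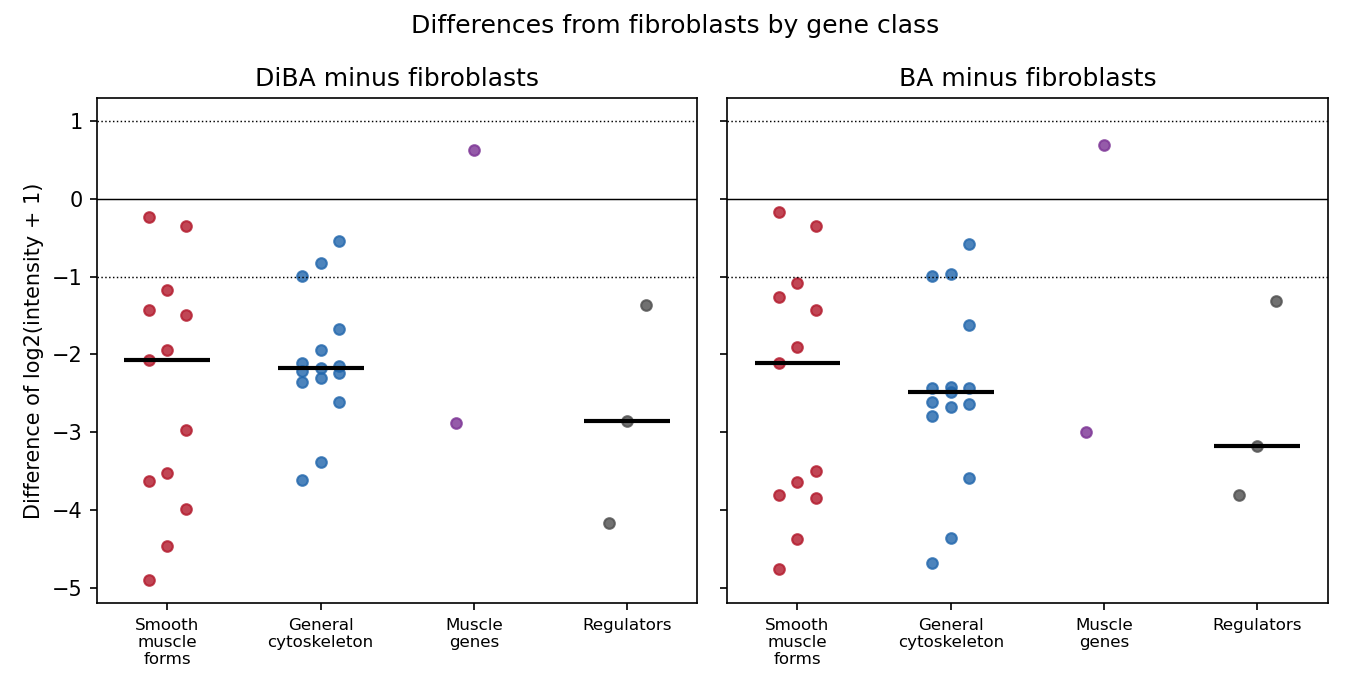
Difference from fibroblasts in log2(intensity + 1) for DiBA (left) and BA (right), with 1 point per gene, a bar at the median of each class of 3 or more genes, and dotted lines at a 2-fold difference. The smooth muscle forms run from -4.90 to -0.23 in DiBA and the general genes from -3.62 to -0.54.

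Genes of smooth muscle and pericytes outside the members did not move one way. Of 14 such markers, 5 were lower and 3 higher in DiBA than in fibroblasts, around a median of -0.57, beside 13.2% and 14.7% of all genes. With intensities raised to 69.2, a setting chosen for these markers after the data were seen, 3 were lower and 3 higher. Their summed intensities were 4115 in DiBA, 4477 in BA and 6518 in fibroblasts. Rgs5, a pericyte marker, had 749.9 in DiBA, 865 in BA and 57.3 in fibroblasts. Kcnj8, a potassium channel gene of pericytes, had 418 in DiBA, 562 in BA and 136 in fibroblasts. Pdgfrb, a receptor of pericytes and fibroblasts, had 603 in DiBA, 555 in BA and 2545 in fibroblasts. Myocd, the SRF coactivator of smooth muscle, had 30.4 in DiBA, 39.1 in BA and 101 in fibroblasts, and was one of the markers whose 2-fold call ended at that floor, at -0.54 in both DiBA and BA.

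The third comparison sets DiBA against BA. Actn1 was the 1 gene of the 33 at least 2-fold higher in DiBA, by 2.46-fold, and 0 were lower, beside 1.75% of the genes passing the level that were higher and 0.0% that were lower. Of the 33 genes 31 passed the level in this pair, Actg2 and Ankrd1 being too dim in both arrays. The next highest were Flna at 0.97 (log2), Cald1 at 0.84, Cnn2 at 0.73 and Cnn3 at 0.61. At the other end lay Ankrd1 at -0.36, Cnn1 at -0.34 and Myh11 at -0.22.

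The classes split in this pair. Of the 15 general genes 14 had a higher value in DiBA than in BA, with a median of 0.32, while 3 of the 13 smooth muscle forms did, with a median of -0.05. Over all 19938 genes 4808 had a higher and 6149 a lower value in DiBA than in BA. Markers moved in this pair too: 9 of 12 fibroblast markers had a higher value in DiBA, with a median of 0.26, with Lox, whose enzyme crosslinks collagen, at 2.52 and Fn1, which encodes fibronectin, at 1.72, while 20 of 20 skeletal muscle and 9 of 10 endothelial markers had a lower one. Their part in the split was not tested. Pdlim5, at -0.05, was the general gene with a lower value, and Cald1, Acta2 and Csrp1 were the smooth muscle forms with a higher one. With each array centred on its median, Actb, Actn4 and Csrp1 turned to the other side, leaving 12 of 15 general genes and 2 of 13 smooth muscle forms higher in DiBA, and with quantile normalization Actn4 turned, leaving 13 and 3. Most of these differences were under 2-fold, and the spread between arrays of 1 group is unknown. Mylk and Smtn had identical values on both arrays, and theirs were the 2 such probe sets among the 34 of the members. The share was 24.7% of all probe sets at least as bright as the dimmest member's and 47.3% of all probe sets. Such ties are no measure of how alike the samples were.

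**Figure D3:**
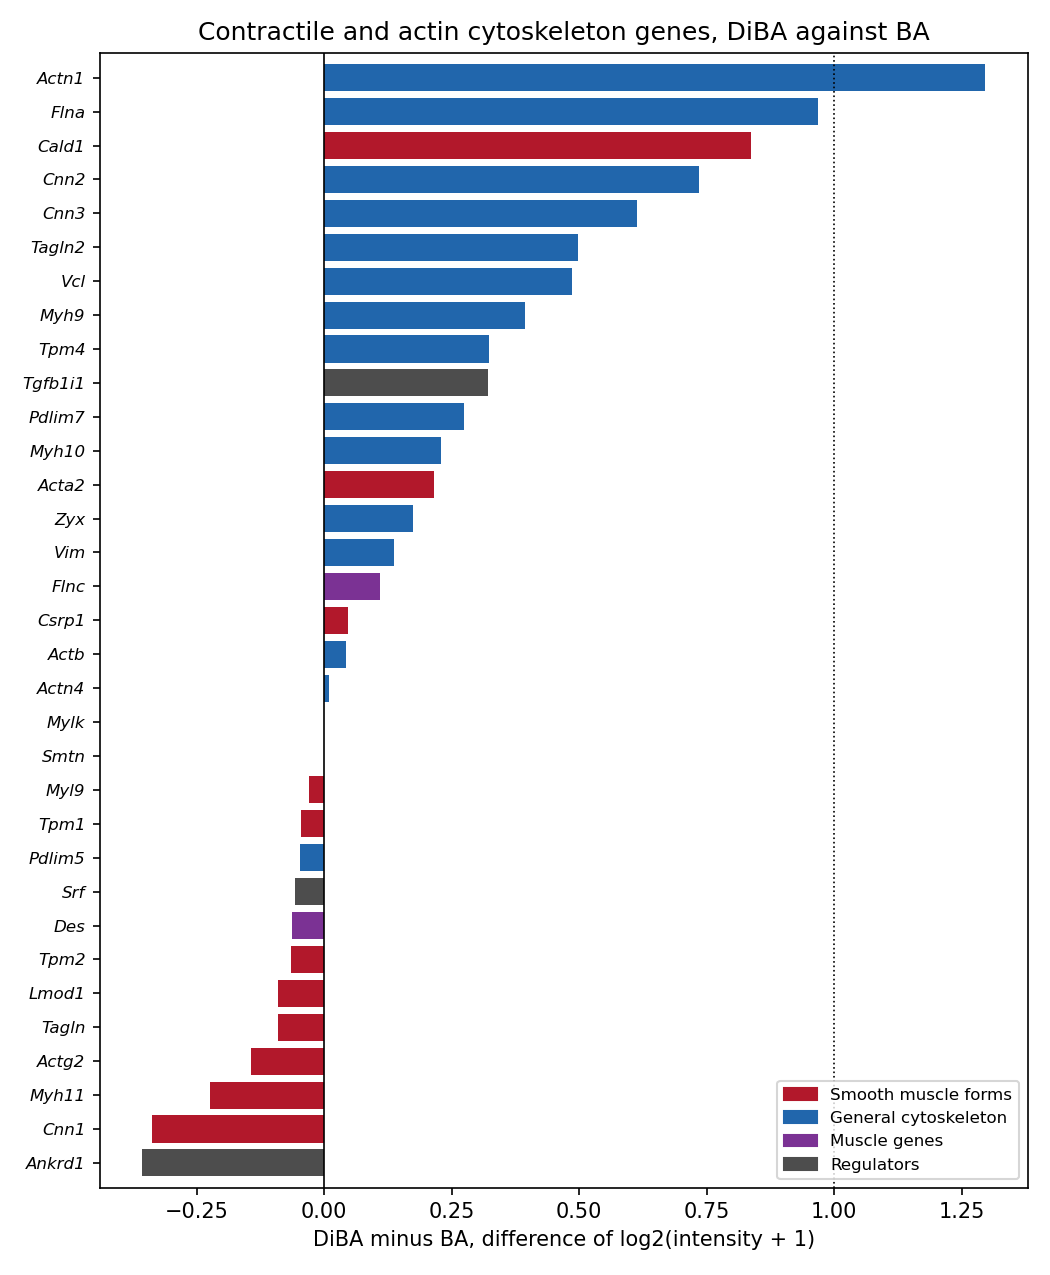
Difference of DiBA minus BA in log2(intensity + 1) for each gene, coloured by class, with a dotted line at a 2-fold difference. General cytoskeleton genes fill most of the upper end, from Actn1 at 1.30, and smooth muscle forms most of the lower end, down to Cnn1 at -0.34.

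Within gene families the split was the same in all but 1 pair. Of 11 pairs of a muscle form and a general form from 7 families, the muscle form had the lower DiBA minus BA difference in 10. The muscle form minus the general form was -1.07 (log2) for Cnn1 with Cnn2, -0.95 for Cnn1 with Cnn3, -0.86 for Flnc with Flna, -0.59 for Tagln with Tagln2 and -0.62 for Myh11 with Myh9. The exception was Acta2 with Actb, at 0.17. Against fibroblasts there was no such order: the muscle form was the lower in 6 of 11 pairs for DiBA and in 4 of 11 for BA. Pairs share genes and all rest on the same arrays, so these counts are descriptions.

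The place of DiBA between BA and fibroblasts was also read on the linear scale, as the excess of DiBA over BA in percent of the excess of fibroblasts over BA. For the 12 general genes lower in BA than in fibroblasts the median was 5.34%, with Vcl at 9.18%, Cnn3 at 8.97%, Flna at 8.71%, Actn1 at 5.90% and Cnn2 at 3.41%. For the 11 smooth muscle forms it was -0.31%, with Cald1 at 6.03%, Acta2 at 1.20%, Myl9 at -0.20%, Tagln at -0.31%, Actg2 at -0.36% and Cnn1 at -1.81%. Over all 1913 genes lower in BA than in fibroblasts the median was 10.2%, and 85.4% of them were above 0, against 11 of the 12 general genes and 3 of the 11 smooth muscle forms. Choosing genes by a low BA value favours values above 0 in all of these sets.

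Other genes, of actin dynamics and beyond, were read from a list of 76, of which 72 were measured, to set the members in their pathway. This pathway list also holds matricellular genes, a gene of membrane repair and some of the muscle and pericyte markers counted above. Of the 72 genes, 35 were lower than in fibroblasts in DiBA and 5 higher, around a median of -0.98. In BA 36 were lower and 7 higher, around a median of -0.97. Over all genes passing the level, 13.2% were lower and 14.7% higher in DiBA, and 16.4% and 16.3% in BA. The lowest in DiBA were the matricellular genes Ccn2 at -4.83 and Ccn1 at -3.42, the cardiac actin gene Actc1 at -3.35 and the LIM gene Fhl2 at -3.19. In BA they were Ccn2 at -5.33, Anln, an actin binder of the cleavage furrow, at -4.15, Myof, a gene of membrane repair, at -3.80, and Ccn1 at -3.71. Cofactors of SRF were part of the list and are named for that role, after their values were seen. Mrtfa had 138 in DiBA, 121 in BA and 304 in fibroblasts, while Mrtfb, at -0.31 and -0.40 for DiBA and BA, did not reach 2-fold.

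The higher genes of that list were led by Acta1 and Gsn. Acta1, the skeletal muscle actin gene, had 2356 in DiBA, 2665 in BA and 512 in fibroblasts, at 2.20 and 2.38 (log2). Gsn, which encodes the actin severing protein gelsolin, had 2575 in DiBA, 2760.1 in BA and 656 in fibroblasts, at 1.97 and 2.07. Ldb3, a protein of the muscle Z-disc, lay at 1.09 and 1.38, the focal adhesion gene Tns1 at 1.19 and 1.37, and Lims2, a partner of integrin-linked kinase, at 1.03 and 1.48. Acta1 and Actc1, whose products differ little in sequence, thus lay on opposite sides. Between DiBA and BA 2 of the 72 genes were higher in DiBA and 0 lower, near the 1.75% and 0.0% of all genes, Myof at 1.39 and Anln at 1.21. Anln had 127 in DiBA and 54.4 in BA, and lay at 0.87 with low intensities raised to 69.2.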

How the data were processed

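Total RNA of 3 samples was fragmented and biotin-labelled with a whole-transcript kit and measured on single-colour Affymetrix arrays, per the labels' protocols. The authors deposited a linear intensity for each probe set and array, and the submitters' processing notes name Affymetrix Expression Console. How probes were summarized, background-corrected and normalized is not given in the sources used here. Median intensities were 71.5 for DiBA, 67.7 for BA and 67.8 for fibroblasts, so the values were taken as normalized.

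Of 28943 probe sets, 21789 carried 1 gene symbol in the platform's probe table. A probe set listed under several symbols was assigned to none of them. Log2(intensity + 1) was averaged over the probe sets of a gene, and the added 1 understates differences of dim genes. Every gene was processed, and the members were read from the whole table. With 1 array per group no test was run, and the number of arrays limits the precision. All 34 members were to be named, and from the pathway list up to 4 of the genes called in each direction. Members and lists were chosen with earlier results of these data known. Alternatives were array centring, quantile normalization, other level filters, a pseudocount of 16, a floor at 69.2, the highest probe set, a 3-fold threshold and other class members. The code of the calling step was run on simulated data with planted changes well above the 2-fold threshold and small noise. Such a run checks the code and says nothing of the spread between real arrays. Python 3.11.15, pandas 2.3.3 and NumPy 2.4.6 were used.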

Additional observations from a re-analysis of the deposited data

How the results depend on the processing

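Of 69 recomputed planned values, 60 kept their sign and stayed within 1.5 times the reported one. Some of them could not move by construction. Examples are the difference between class medians with array centring, and the member calls against fibroblasts with no level filter. The count of members lower than in fibroblasts ran from 23 to 28 in DiBA and from 23 to 27 in BA over all alternatives. With a 3-fold threshold, by its construction, the pathway genes called were 19 for DiBA and 21 for BA against fibroblasts, and between DiBA and BA 0 members and 0 pathway genes were called. Between DiBA and BA, 1 pathway gene was called with the 75th percentile filter, and 1 with intensities raised to the median. The smooth muscle minus general median was 0.17 in DiBA against fibroblasts with quantile normalization, and without Tpm1, Tpm2, Cald1, Myl9 and Mylk its sign turned, at -0.68 in DiBA and -0.40 in BA. Between DiBA and BA that difference, -0.37 as reported, ran from -0.41 to -0.33. No paired analysis was possible because each group holds 1 array. No replicate could be left out for the same reason. Values under 69.2, as for Actg2 and Ankrd1, are limited by signal over background.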
